A study of Rattus norvegicus with 10 samples.

Results

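Transcripts of 7 genes for sodium-proton exchange and bicarbonate transport were followed in the renal cortex of the PCK rat, a strain whose *Pkhd1* mutation gives it a recessive form of polycystic kidney disease. The genes were *Slc9a2*, *Slc9a3*, *Slc9a4* and *Slc9a8*, which encode sodium-proton exchangers, and *Slc4a2*, *Slc4a4* and *Slc4a7*, which encode bicarbonate transporters. They were taken by symbol from a table of 32545 genes, and each symbol had 1 row. RNA came from snap-frozen kidney cortex of 5 male and 5 female rats, with 1 library per rat and no treatment. All 10 rats carried the same strain background, PCK/CrljCrl-Pkhd1pck/Crl, and the libraries analysed here hold no rat without the mutation, so the comparison is of the sexes within the disease model. The rats were littermates from a pair of litters. The sample labels do not give the litter of each rat, so litter could not be fitted and the rats were treated as independent. The sample labels give an age of 12 to 14 weeks, and the methods of the study give a slightly younger range.

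The kidney reabsorbs filtered bicarbonate mainly in the proximal tubule. There a proton leaves the cell through the apical exchanger NHE3 (*Slc9a3*) in return for sodium, carbonic anhydrases interconvert carbon dioxide and bicarbonate on both sides of the membrane, and bicarbonate leaves through the basolateral cotransporter NBCe1 (*Slc4a4*). The thick ascending limb and the distal convoluted tubule add further exchangers, and the intercalated cells of the collecting duct use the anion exchanger AE1 to return bicarbonate to the blood.

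Levels are given as FPKM (fragments scaled to gene length and to a size given to each library), a unit per length that lets genes be set side by side. Between 13912569 and 20285911 reads per library fell on genes. The size implied by the values was 0.905 to 1.07 times the reads on genes, and the median-ratio scaling factor was 1.01 in every library, so the values were already on a common median-ratio scale. Mitochondrial genes took 14.3% to 19.1% of the reads in 9 libraries and 26.8% in female 2. All 8 proximal tubule markers checked averaged 65.5 FPKM or more, and *Umod* of the thick ascending limb averaged 1125 FPKM. Differences between the sexes were fitted with limma on log2(FPKM + 0.1) for the 17631 genes averaging 0.1 FPKM or more, all 7 genes among them, and p-values were adjusted by Benjamini-Hochberg over that whole set. Fold changes are females over males on this scale. Mean FPKM was also compared for each gene by a two-sided exact permutation test, whose smallest possible p with 5 rats per sex is 0.00794. In whole tissue, fewer cells of a type and less RNA per cell cannot be told apart.

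One of the 7 genes, *Slc9a2*, differed between the sexes, and it was higher in females. The other 6 did not pass either test. By limma's adjusted p alone, 1 of 7 was called, against 2.4% of all genes tested. With a log2 fold change of at least 1 required as well, the count was again 1 of 7, against 1.32% of all genes in either direction and 0.618% higher in females. By the exact permutation test 1 of 7 had a p of at most 0.05, against 14.8% of all genes, and 1 of 7 had ranges that did not overlap, against 5.1%. The median log2 fold change was 0.05 over the 7 genes and −0.01 over all genes tested.

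*Slc9a2* encodes NHE2, an exchanger of the apical membrane in the thick ascending limb, macula densa and distal convoluted tubule. The table lists it as ENSRNOG00000015567 on chromosome 9 of Rnor_6.0, plus strand, from 47386626 to 47491907. Its level was 1.45, 1.20, 1.36, 1.70 and 1.04 FPKM in males 1 to 5. In females 1 to 5 it was 2.53, 2.85, 3.30, 3.76 and 3.96 FPKM. Every female stood above every male, with a gap between the highest male (1.70 FPKM) and the lowest female (2.53 FPKM). The mean rose from 1.35 ± 0.249 FPKM (SD, n = 5) in males to 3.28 ± 0.600 FPKM (SD, n = 5) in females. The log2 fold change was 1.22 (standard error, SE, 0.17, 95% interval 0.85 to 1.59, adjusted p = 0.00284 by limma), a fold of 2.33, and the exact permutation p was 0.00794. Counted reads numbered 62 to 139 for a male library and 160 to 265 for a female one. With a pseudocount of 1 in place of 0.1 the log2 fold change was 0.86, below the fold threshold, and the limma adjusted p stayed under 0.05.

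*Slc9a4* encodes NHE4, a basolateral exchanger of the thick ascending limb. It ends 57786 bases upstream of *Slc9a2* on the same strand, with 1 other gene between them (ENSRNOG00000015306, chromosome 9, from 47281961 to 47328839). Males were at 3.57, 3.12, 3.98, 3.18 and 3.55 FPKM. Females were at 3.75, 6.53, 4.07, 4.004 and 2.91 FPKM, so the female values enclosed the whole male range. Female 2 was the highest of all 10 rats and female 5 the lowest. The means were 3.48 ± 0.346 in males and 4.25 ± 1.35 FPKM in females (SD, n = 5 each), with a log2 fold change of 0.24 (95% interval −0.17 to 0.64, adjusted p = 0.588 by limma). The exact permutation p was 0.246 with all rats and 0.0317 without female 5.

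The ratio of *Slc9a2* to *Slc9a4* was 0.293 to 0.533 in males and 0.437 to 1.36 in females. Female 2 was the only female inside the male range. The start regions of both neighbours are shown because one differed between the sexes and the other did not pass the test. They are the 250 bases before the start of each gene from RefSeq on the build GRCr8, read 5′ to 3′, and capitals mark the searched motifs.
*Slc9a2*, chr9:50427362-50427611, plus strand: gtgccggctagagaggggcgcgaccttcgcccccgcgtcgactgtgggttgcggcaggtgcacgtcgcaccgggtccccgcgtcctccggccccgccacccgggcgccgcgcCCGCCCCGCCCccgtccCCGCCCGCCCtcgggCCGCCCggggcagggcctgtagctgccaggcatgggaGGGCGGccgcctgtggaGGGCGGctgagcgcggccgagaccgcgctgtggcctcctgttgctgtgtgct
*Slc9a4*, chr9:50320698-50320947, plus strand: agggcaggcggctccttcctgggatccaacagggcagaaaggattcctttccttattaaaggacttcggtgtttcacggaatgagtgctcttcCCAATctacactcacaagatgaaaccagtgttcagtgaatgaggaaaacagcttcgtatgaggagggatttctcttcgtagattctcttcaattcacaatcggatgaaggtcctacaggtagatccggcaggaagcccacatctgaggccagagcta
The motifs searched on both strands were the GC box GGGCGG, the TATA box TATAAA, the CCAAT box, the nuclear receptor half-site AGGTCA, the steroid receptor half-site AGAACA and the HNF1 half-site GTTAAT. The *Slc9a2* sequence is 79.6% G and C and holds 7 GC boxes, some of which overlap. At least 1 GC box is present in 30.5% of the 33469 windows of this length in the RefSeq table, and windows with 7 were not counted. Those windows have a median of 51.2% G and C and a 90th percentile of 68.4%, so the share is not matched for base content. The *Slc9a4* sequence is 48.4% G and C and holds 1 CCAAT box, which 34% of the windows hold. The other motifs are in 12.9% (TATA box), 14.1% (nuclear receptor half-site), 17.5% (steroid receptor half-site) and 6.45% (HNF1 half-site) of all windows. None of these 4 is in either sequence, which says only that those letters are not in the window. For *Slc9a2* the table holds a second start, whose 250 bases are 48% G and C with 1 CCAAT box.

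*Slc9a3* encodes NHE3, the main apical exchanger of the proximal tubule (ENSRNOG00000015159, chromosome 1, minus strand, from 31734327 to 31777070). Males were at 25.8, 23.2, 28.7, 20.7 and 9.48 FPKM. Females were at 18.5, 13.1, 20.7, 34.5 and 23.1 FPKM. The lowest value was in male 5 and the highest in female 4, and the sexes overlapped over most of their range. The means were 21.6 ± 7.40 in males and 21.98 ± 7.90 FPKM in females (SD, n = 5 each). The log2 fold change was 0.05 (SE 0.31, adjusted p = 0.963 by limma, exact permutation p = 0.937), and its 95% interval ran from −0.64 to 0.74. Folds from 0.643 to 1.67 therefore lie within the interval.

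*Slc9a8* encodes NHE8, an exchanger of the apical membrane and of intracellular compartments in the proximal tubule (ENSRNOG00000008354, chromosome 3, plus strand, from 164174357 to 164222329). Its level was 8.29, 8.62, 10.4, 10.9 and 9.41 FPKM in males. In females it was 10.8, 9.02, 10.7, 10.8 and 10.8 FPKM. It varied least of the 7 among females, with an SD of 7.63% of the mean, and female 2 alone stood below the other 4. The means were 9.52 ± 1.119 and 10.4 ± 0.797 FPKM (SD, n = 5 each), with a log2 fold change of 0.14 (95% interval −0.08 to 0.35, adjusted p = 0.557 by limma, exact permutation p = 0.175).

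**Figure D1:**
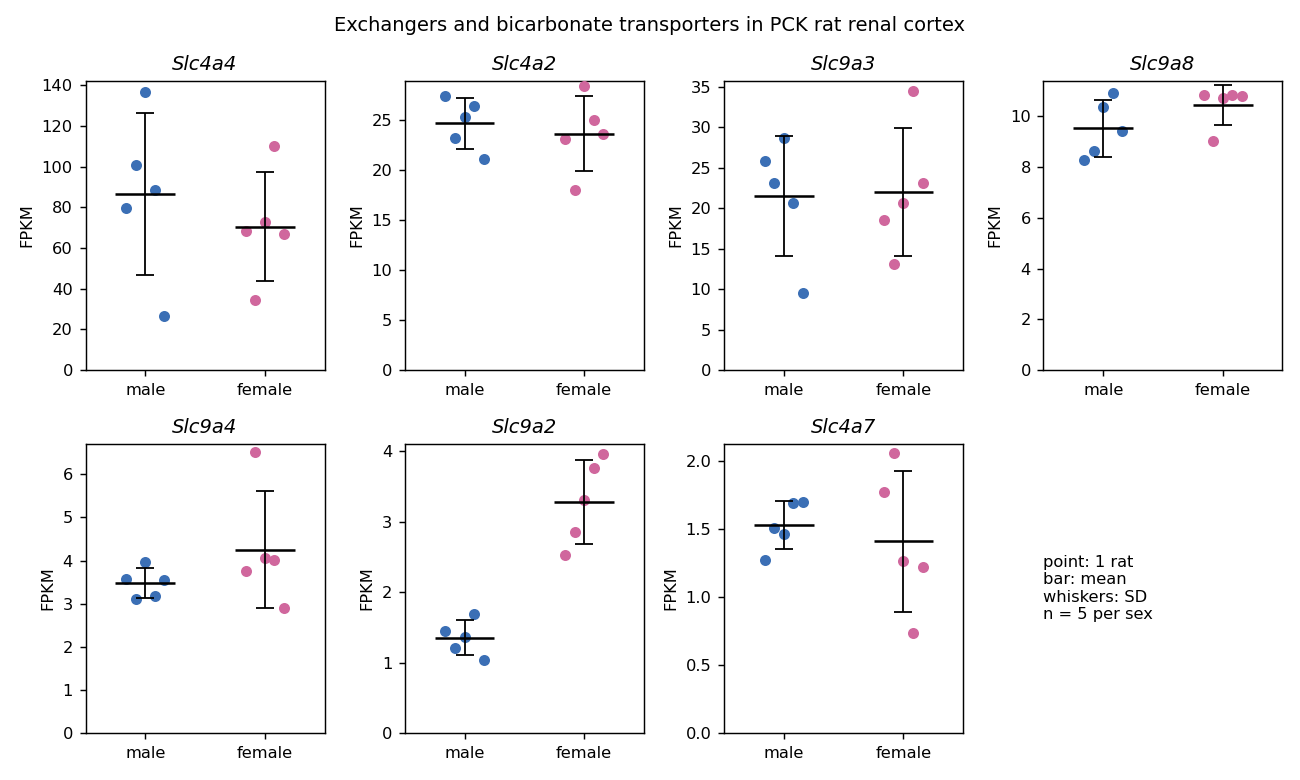
FPKM of the 7 genes in each of 5 male and 5 female rats, 1 panel per gene, ordered by mean level, with the mean as a bar, the SD as whiskers and every axis starting at 0. *Slc9a2* is the panel in which all females (2.53 to 3.96 FPKM) lie above all males (1.04 to 1.70 FPKM).

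*Slc4a4* encodes the sodium bicarbonate cotransporter NBCe1 of the basolateral membrane of the proximal tubule (ENSRNOG00000003134, chromosome 14, minus strand, from 20479323 to 20920286). It was the most abundant of the 7 in every rat. Males were at 79.6, 101, 137, 88.3 and 26.7 FPKM. Females were at 68.2, 34.6, 72.7, 110 and 66.8 FPKM. Male 5 and female 2 were the lowest of their sexes, and the sexes overlapped. The means were 86.4 ± 39.8 in males and 70.5 ± 26.9 FPKM in females (SD, n = 5 each). The log2 fold change was −0.21 (SE 0.41, adjusted p = 0.863 by limma, exact permutation p = 0.476), with a 95% interval from −1.12 to 0.70, the widest of the 7.

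*Slc4a2* encodes the chloride-bicarbonate exchanger AE2, a basolateral protein of many epithelia (ENSRNOG00000014347, chromosome 4, minus strand, from 7264683 to 7281223). Males were at 27.4, 23.1, 25.3, 26.4 and 21.1 FPKM. Females were at 23.1, 18.0, 28.4, 24.99 and 23.6 FPKM. Female 2 was the lowest and female 3 the highest of all rats. The means of 24.7 ± 2.55 and 23.6 ± 3.73 FPKM (SD, n = 5 each) differed by less than either SD, with a log2 fold change of −0.07 (95% interval −0.34 to 0.19, adjusted p = 0.836 by limma, exact permutation p = 0.643).

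*Slc4a7* encodes NBCn1, an electroneutral sodium bicarbonate cotransporter found at the basolateral membrane of the thick ascending limb (ENSRNOG00000005957, chromosome 15, minus strand, from 11836286 to 11912916). Males were at 1.28, 1.51, 1.47, 1.69 and 1.70 FPKM. Females were at 1.78, 2.06, 1.27, 0.733 and 1.22 FPKM, again enclosing the male range, from 54 to 124 reads per female. The means were 1.53 ± 0.176 in males and 1.41 ± 0.518 FPKM in females (SD, n = 5 each). The SD was 11.5% of the mean in males and 36.7% in females. The log2 fold change was −0.17 (95% interval −0.70 to 0.35, adjusted p = 0.786 by limma, exact permutation p = 0.683).

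Ordered by mean over the 10 rats, *Slc4a4* (78.5 FPKM) was followed by *Slc4a2* (24.2 FPKM), *Slc9a3* (21.8 FPKM), *Slc9a8* (9.99 FPKM), *Slc9a4* (3.87 FPKM), *Slc9a2* (2.32 FPKM) and *Slc4a7* (1.47 FPKM). *Slc4a4* exceeded *Slc4a2* in 10 of 10 rats. *Slc4a2* and *Slc9a3* were not separated, since *Slc4a2* was higher in 7 of 10 rats. *Slc9a3* exceeded *Slc9a8* in 10 of 10 rats, and the ranges of *Slc9a8* and *Slc9a4* did not overlap. *Slc9a4* exceeded *Slc9a2* in 9 of 10 rats, female 5 being the exception. *Slc9a2* exceeded *Slc4a7* in 7 of 10 rats, which were the 5 females, male 1 and male 4. Of the summed FPKM of the 7 genes, *Slc4a4* held 36.5% to 65.7% in males and 40.1% to 58.3% in females. *Slc9a3* held 13.0% to 17.5% and 14.4% to 18.2%. *Slc9a2* held 0.654% to 1.42% in males and 1.96% to 3.31% in females.

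The apical and basolateral steps of the proximal tubule, *Slc9a3* and *Slc4a4*, varied together from rat to rat, by Pearson's r and not by the adjusted p of Spearman's rho. On log2 values over the 10 rats Pearson's r was 0.934 (permutation p = 0.0003, 0.0063 adjusted over the 21 pairs of the 7 genes). Spearman's rho was 0.842 (permutation p = 0.00351, 0.0737 adjusted over the 21 pairs). Without male 5 and female 2, the 2 rats farthest from the median of *Slc9a3*, r was 0.708. After the mean of each sex was removed, r over the 10 rats was 0.953. No other pair had an adjusted permutation p of at most 0.05 on either measure, and the next lowest adjusted p for r was 0.221. The ratio of *Slc4a4* to *Slc9a3* ranged from 2.81 to 4.75 in males and from 2.63 to 3.68 in females.

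The summed FPKM of the 8 proximal tubule markers was 1882 in male 5 and 1672 in female 2, and 2064 to 3358 in the other 8 rats. Gene by gene, female 2 was the lowest female for 8 of 8 markers, and male 5 was the lowest male for 7 of 8, with *Aqp1* as the exception. Their part in the relation was not tested. The start regions of both genes are shown because the levels of the genes varied together, from the same RefSeq table with the same capitals.
*Slc9a3*, chr1:30996003-30996252, minus strand: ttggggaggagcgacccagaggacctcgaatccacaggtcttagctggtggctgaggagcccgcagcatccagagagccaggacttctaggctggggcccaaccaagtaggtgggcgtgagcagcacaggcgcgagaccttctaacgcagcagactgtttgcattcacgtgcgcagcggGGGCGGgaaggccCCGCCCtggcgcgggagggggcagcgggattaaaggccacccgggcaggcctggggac
*Slc4a4*, chr14:19468283-19468532, minus strand: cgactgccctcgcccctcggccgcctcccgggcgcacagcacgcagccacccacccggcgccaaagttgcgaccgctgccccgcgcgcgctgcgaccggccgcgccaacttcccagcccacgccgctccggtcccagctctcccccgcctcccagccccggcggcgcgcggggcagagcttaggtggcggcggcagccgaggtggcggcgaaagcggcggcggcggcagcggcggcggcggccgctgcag
The *Slc9a3* sequence is 66.8% G and C and holds 2 GC boxes. The *Slc4a4* sequence is 80.8% G and C and holds none of the 6 motifs, so the 2 sequences share none of them. For 6 of the 7 genes the RefSeq table held a start region, and the median over all windows was 51.2% G and C.

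**Figure D2:**
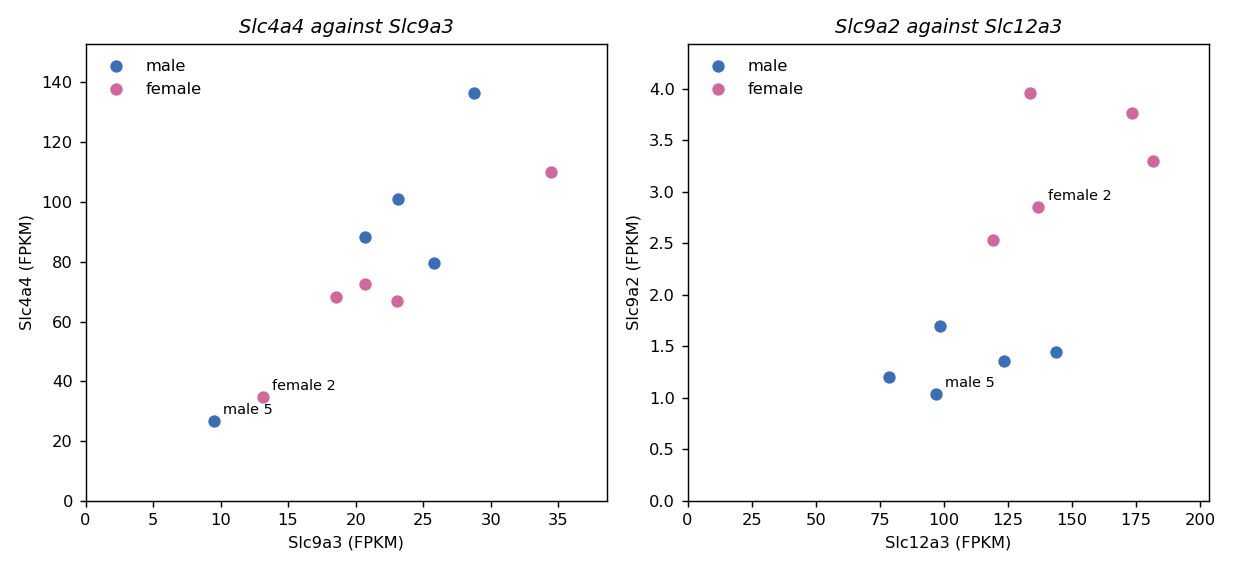
Left, *Slc4a4* against *Slc9a3*, and right, *Slc9a2* against *Slc12a3*, both axes in FPKM, 1 point per rat coloured by sex. Male 5 and female 2 hold the lowest values of both genes on the left. On the right every female lies above every male in *Slc9a2*, and the ranges of *Slc12a3* overlap.

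**Figure D3:**
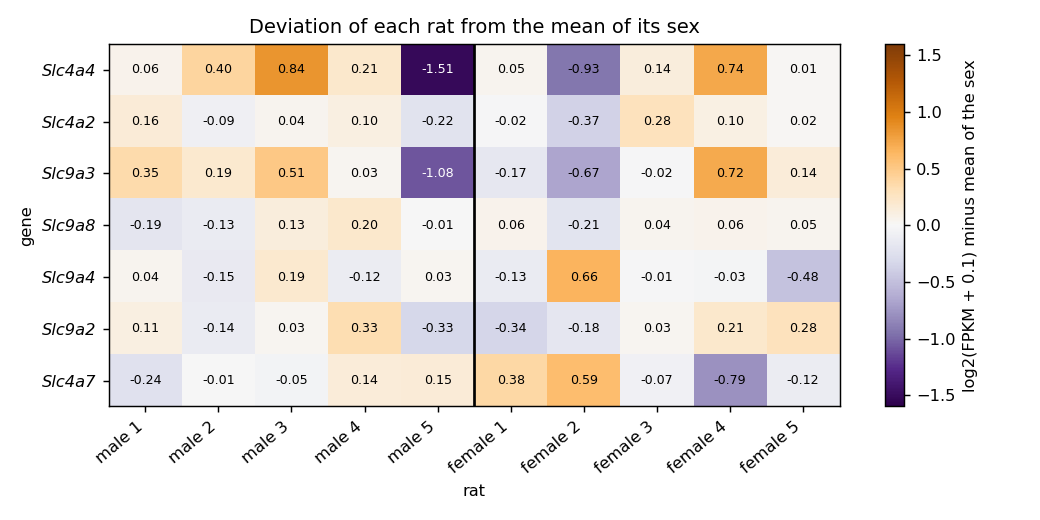
Difference of each rat from the mean of its sex on the log2(FPKM + 0.1) scale, with genes in rows ordered by level and rats in columns. Male 5 is at −1.51 for *Slc4a4* and −1.08 for *Slc9a3*, and female 2 is at −0.93 and −0.67, while *Slc9a4* is at 0.66 in female 2.

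Genes with the most similar course were sought among 12061 genes averaging 1 FPKM or more, after the mean of each sex was removed, and the values describe these 10 libraries only. For *Slc9a3* they were *Slc3a2* (r = 0.982, rho = 0.988), *Add3* and *Pikfyve*. For *Slc4a4* they were *Rnf152* (r = 0.988, rho = 0.976), *Dnajc13* and *Ppara*. For *Slc9a2* they were *Zswim1* (r = 0.968, rho = 0.976), *Adrm1* and *Lmf1*. For *Slc9a4* the closest was *Mknk1* (r = 0.959, rho = 0.830), followed by *Dock11* and *Lig1*. For *Slc9a8* the closest was *Nop9* (r = 0.927, rho = 0.794), followed by *Nom1* and *Hc*. For *Slc4a2* the closest was *Wdr1* (r = 0.970, rho = 0.903), followed by *Cbx6* and *Ano8*. For *Slc4a7* the closest was *Colec12* (r = 0.985, rho = 0.952), followed by *Cdca7* and *Lox*.

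*Slc9a2* was set beside markers of the segments in which NHE2 is found. *Slc12a3*, the thiazide-sensitive cotransporter of the distal convoluted tubule, was at 108 in males and 149 FPKM in females (adjusted p = 0.207 by limma). *Slc12a1*, the loop diuretic target of the thick ascending limb, was at 122 and 155 FPKM (adjusted p = 0.243 by limma). All 4 tested genes of the distal convoluted tubule list and 4 of the 5 of the thick ascending limb list had a positive log2 fold change, as had 8599 of the 17631 genes tested. An unadjusted limma p under 0.05 was found for 3 of the 4 and 2 of the 5, against 15.7% of all genes. In each list 1 gene passed limma's adjusted test, against 2.4% of all genes. *Wnk1*, a kinase of the distal convoluted tubule list, rose from 49.3 to 72.2 FPKM (adjusted p = 0.0422 by limma), and *Ptger3*, a prostaglandin receptor and the 1 gene of the thick ascending limb list with a negative log2 fold change, fell from 34.8 to 22.9 FPKM (adjusted p = 0.0435 by limma). As a percentage of *Slc12a3*, *Slc9a2* was at 1.01% to 1.72% in males and 1.82% to 2.97% in females. As a percentage of *Slc12a1* it was at 0.676% to 1.34% in males and 1.398% to 2.82% in females. On both measures the ranges of the sexes were apart, as those of *Slc9a2* alone were. Both ratios were chosen after the values were seen, so they add no separate comparison.

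Summed over marker lists, the distal convoluted tubule (5 genes, of which *Pvalb* is listed at 0 in every rat) ranged from 132 to 216 FPKM in males and from 195 to 283 FPKM in females. The thick ascending limb (5 genes) ranged from 1120 to 1631 and from 1157 to 1818 FPKM. Intercalated cells (5 genes) ranged from 154 to 229 and from 236 to 378 FPKM, with no overlap, and principal cells (5 genes) from 157 to 236 and from 186 to 266 FPKM. Of the intercalated cell genes limma called 1 of 5, against 2.4% of all genes, and 2 of 5 had ranges apart, against 5.1%. The sum of 4 fibroblast genes was lower in females, at 230 to 313 in males and 68.5 to 224 FPKM in females, without overlap. Limma called 1 of these 4, and 2 of 4 had ranges apart, against the same shares of all genes. Leukocyte genes (4) ranged from 45.1 to 70.4 and from 20.9 to 63.6 FPKM, and genes of injured tubule (4) from 78.3 to 196 and from 13.5 to 119 FPKM. The podocyte list ranged from 111 to 151 and from 103 to 168 FPKM and the endothelial list from 71.2 to 90.4 and from 70.0 to 118 FPKM. The 3 urothelial genes summed to 0.144 to 0.315 in males and 0.180 to 6.80 FPKM in females, the highest being female 2. How far these lists bear on *Slc9a2* was not tested.

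The other Slc9 genes did not pass limma's test. Of 9 genes listed, 7 were expressed enough to be tested, and limma called 0 of 7, against 2.4% of all genes, and limma-voom on recovered reads called 0. The exact permutation test called 1 of 7, against 14.8% of all genes, and 1 of 7 had an unadjusted limma p under 0.05, against 15.7%, so both counts were near the share over all genes.

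Of 7 other Slc4 genes, 6 were tested. Limma called 0 and limma-voom on recovered reads 0, while 2 had an unadjusted limma p under 0.05, against 15.7% of all genes, and 2 an exact permutation p of at most 0.05, against 14.8%. Those with a low exact p were 2 genes known from intercalated cells. *Slc4a1*, which encodes the basolateral anion exchanger AE1, was at 28.5 ± 3.83 in males and 37.2 ± 6.22 FPKM in females (log2 fold change 0.38, adjusted p = 0.189 by limma, exact permutation p = 0.0476). *Slc4a9*, which encodes AE4, was at 23.7 ± 4.71 and 32.9 ± 7.75 FPKM (log2 fold change 0.46, adjusted p = 0.224 by limma, exact permutation p = 0.0476). The sums of intercalated cell markers given above were also higher in females. Among the females, female 2 had the highest sum (378 FPKM). Female 2 also had their second lowest level of *Slc4a1* (31.0 FPKM) and of *Slc4a9* (28.6 FPKM). The remaining females ranked alike on the sum and on *Slc4a9* (female 3, then female 4, female 5 and female 1). Their order on *Slc4a1* was different. Among the males, male 1 was the highest and male 4 the lowest for the sum and for both genes. The part of these markers was not tested. *Slc4a8*, an electroneutral sodium-driven chloride-bicarbonate exchanger, was at 1.03 ± 0.344 and 0.739 ± 0.231 FPKM (adjusted p = 0.482 by limma). *Slc4a11* was at 1.42 ± 0.332 and 1.77 ± 0.424 FPKM (adjusted p = 0.564 by limma).

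Carbonic anhydrases hydrate carbon dioxide to bicarbonate and a proton. Of 15 listed, 14 passed the filter on low values, 1 of them (*Car5a*) through its female values alone. Of the other 13, limma called 0 higher and 2 lower in females, against 1.26% and 1.14% of all genes, 4 had an unadjusted limma p under 0.05, against 15.7%, and 4 an exact permutation p of at most 0.05, against 14.8%. Among them *Car13*, a cytosolic enzyme named after its values were seen, was at 2.30 and 1.23 FPKM without overlap (adjusted p = 0.0828 by limma, exact permutation p = 0.00794). *Car2* and *Car4*, the enzymes best known for bicarbonate reabsorption, were not called. *Car5b*, a mitochondrial enzyme, fell from 49.6 ± 7.85 to 31.7 ± 3.90 FPKM, with no overlap and a log2 fold change of −0.64 (SE 0.12, adjusted p = 0.0193 by limma). *Car3*, a cytosolic enzyme of low activity known from muscle and fat, fell from 13.9 ± 6.31 to 3.44 ± 1.98 FPKM (log2 fold change −2.11, SE 0.43, adjusted p = 0.0254 by limma). Both calls depended on single rats, since the limma adjusted p of *Car5b* was 0.0580 without female 5 and that of *Car3* was up to 0.0733 without male 3, male 5, female 3 or female 5. Leaving out 1 rat at a time, the log2 fold change ranged from −0.70 to −0.56 for *Car5b* and from −2.36 to −1.76 for *Car3*. The ranges of *Car3* did not overlap. Male 5 had the highest *Car3* of all rats at 24.5 FPKM and female 4 the lowest at 1.07 FPKM. *Car5a*, the other mitochondrial form, had no read in any male and 3 to 16 reads in females. The mean of the females was 2.94-fold a floor of 3 reads per male library, and female 1, with 3 reads, was itself at that floor. Since *Car5a* passed the filter only through females, no test is given for it.

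*Car2*, the cytosolic enzyme of most tubule cells, did not pass the test, at 254 ± 21.4 and 300.1 ± 47.7 FPKM (log2 fold change 0.23, adjusted p = 0.387 by limma). *Car4*, anchored in the apical and basolateral membranes of the proximal tubule, was at 32.7 ± 8.08 and 37.8 ± 6.58 FPKM (adjusted p = 0.606 by limma). *Car12* was at 320 ± 59.3 and 346 ± 62.1 FPKM (adjusted p = 0.790 by limma). *Car14*, a membrane-bound enzyme, was at 40.5 ± 11.9 and 44.4 ± 12.2 FPKM (adjusted p = 0.823 by limma), and male 5 had the lowest value, 20.2 FPKM.

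Among 10 scaffolds and binding partners of the exchangers, limma called 1 higher and 0 lower, with 4 at an unadjusted p under 0.05 and 3 at an exact permutation p of at most 0.05, against 1.26%, 1.14%, 15.7% and 14.8% of all genes in that order. The called gene was *Chp1*, a calcium-binding protein that attaches to sodium-proton exchangers. *Chp1* was at 40.6, 45.5, 43.6, 48.5 and 47.2 FPKM in males. It was at 65.7, 55.7, 57.3, 64.2 and 71.1 FPKM in females, all above the males. The log2 fold change was 0.47 (SE 0.09, adjusted p = 0.0147 by limma). *Ezr*, which encodes the membrane linker ezrin and is named after its values were seen, was at 189 ± 23.4 and 245 ± 30.5 FPKM (adjusted p = 0.156 by limma, exact permutation p = 0.0238). *Tesc*, also named after its values were seen, was at 5.69 ± 1.48 and 8.89 ± 1.97 FPKM (adjusted p = 0.142 by limma, exact permutation p = 0.0159). The scaffolds with PDZ domains did not pass limma's test. *Slc9a3r1* (NHERF1) was at 357 ± 40.7 and 413 ± 69.6 FPKM (adjusted p = 0.530 by limma) and *Slc9a3r2* (NHERF2) at 29.7 and 35.9 FPKM (adjusted p = 0.402 by limma). *Pdzk1* was at 324 ± 50.2 and 334 ± 103 FPKM (adjusted p = 0.998 by limma). *Pdzd3* was at 16.5 ± 3.06 and 26.1 ± 10.7 FPKM (log2 fold change 0.55, adjusted p = 0.401 by limma), and without female 2, its lowest rat, the adjusted p was 0.0435.

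*Ahcyl1*, which encodes IRBIT, an activator of NHE3, was at 46.6 ± 3.76 and 46.3 ± 3.73 FPKM (adjusted p = 0.984 by limma). Its relative *Ahcyl2* was at 43.4 ± 11.8 and 29.7 ± 5.10 FPKM (log2 fold change −0.52, adjusted p = 0.225 by limma). Of 6 genes of acid-base sensing, limma called 0, limma-voom on recovered reads called 0 and the exact permutation test 0, and 2 had an unadjusted limma p under 0.05, against 15.7% of all genes. Over the 42 tested genes of all 5 lists with reads in both sexes, limma called 1 higher and 2 lower, against 1.26% and 1.14% of all genes. A positive log2 fold change was found for 21 and a negative one for 21.

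**Figure D4:**
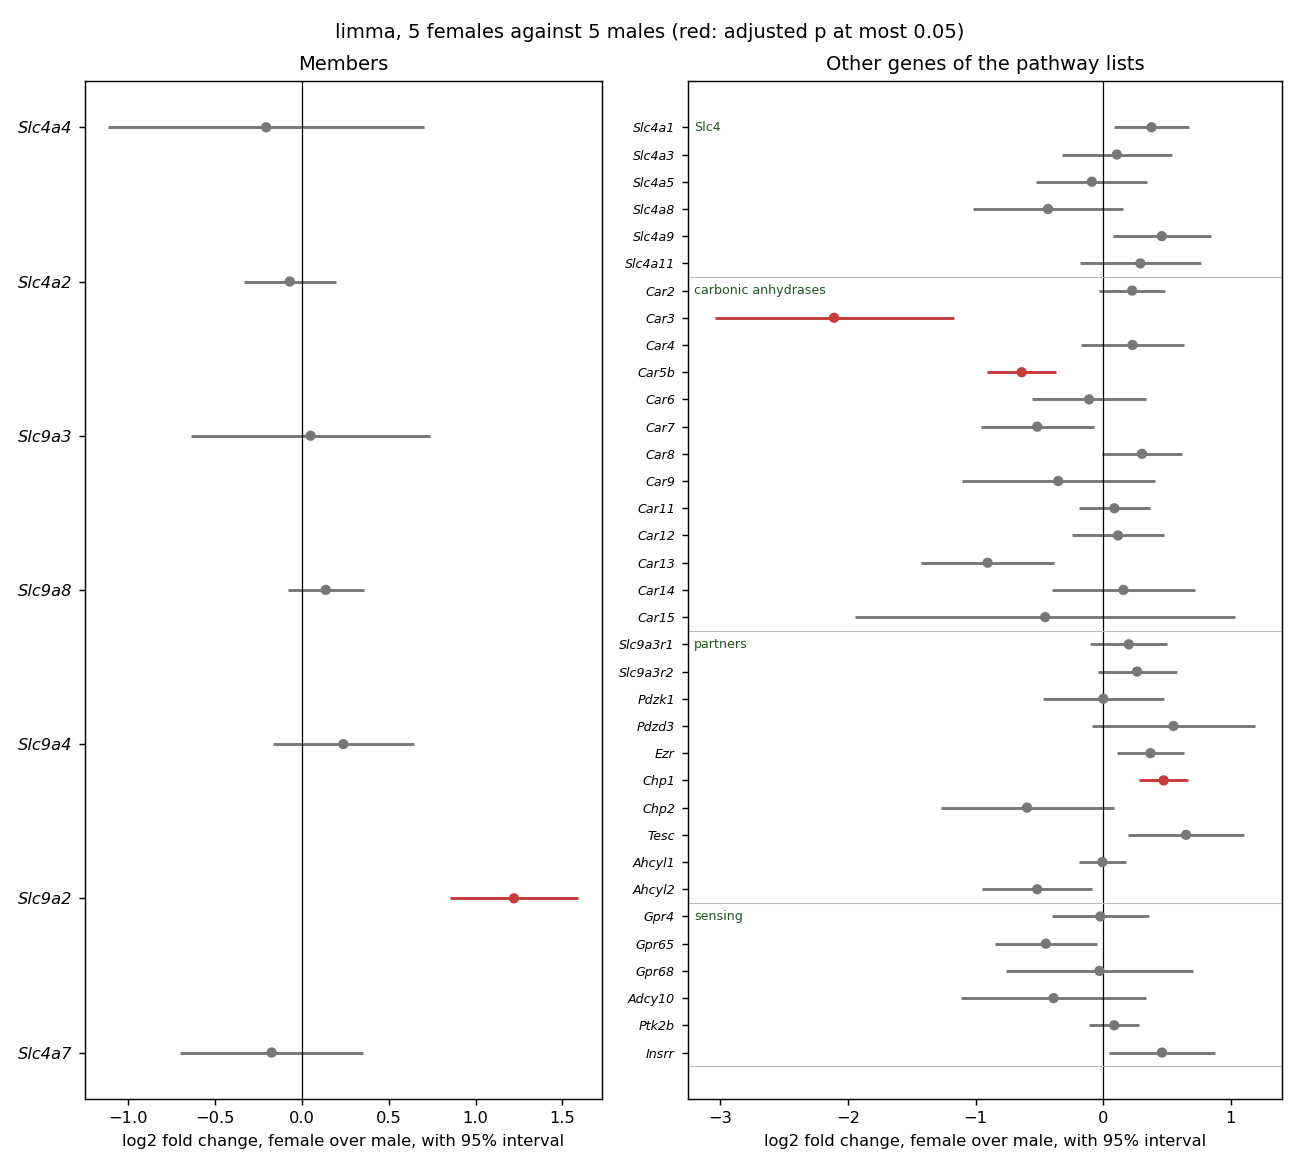
log2 fold change of females over males with its 95% interval from limma, for the 7 genes on the left and the tested genes of the Slc4, carbonic anhydrase, partner and acid-base sensing lists with reads in both sexes on the right, with red for a limma adjusted p of at most 0.05. On the left only *Slc9a2* (1.22) is red, and on the right *Chp1* is red above 0 and *Car3* and *Car5b* are red below 0.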

How the data were processed

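Renal cortex RNA-seq libraries of 10 PCK rats, 1 for each rat, were grouped by the sex in the sample labels (5 male, 5 female). RNA was poly(A)-selected per the labels. The authors deposited 1 table of FPKM per gene, made by their sequencing provider from reads mapped with HISAT2 to Ensembl Rnor_6.0. Per the labels, the processing notes name fastp, HISAT2 2.0.5, StringTie 1.3.3b and featureCounts 1.5.0-p3. Strand handling is not given in the sources used here.

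Each FPKM was divided by the worth of 1 read at the deposited gene length, which gave whole reads (within 0.001) for 100% of values and hence the depths and reads quoted. Values of 3 reads or fewer per library were taken as the floor, which covers counting error only. The 2 most similar libraries had a chi-square over its degrees of freedom of 9.71, and all were kept as separate samples. P-values measure the spread between rats, treated as independent although they came from a pair of litters.

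The main fit was limma 3.58.1 (R 4.3.3, eBayes with trend) on log2(FPKM + 0.1) with Benjamini-Hochberg adjustment. Exact permutation tests enumerated all 252 splits (Python 3.11.15, numpy 2.4.6, scipy 1.17.1). Both were tested on simulated data. Correlations had 100000 permutations. Alternatives were other pseudocounts, filters, scalings and eBayes settings, limma-voom on recovered reads, a replicate block and leaving out each library. Median-ratio scaling was no test of scaling, since its factor was 1.01 in every library.

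The 7 genes, the lists of related genes and the cell markers were chosen with earlier results of these data known. Named genes were the 7, a fixed set of 17 partners (some of which are not reported here), list genes called by limma and the 3 most similar genes for each of the 7. *Slc12a3*, *Slc12a1*, *Umod*, *Pvalb*, *Aqp1*, *Wnk1* and *Ptger3* were named as markers, and which ratios and start regions to show was decided after the values were seen. Start regions came from RefSeq (GRCr8), while positions of genes are those of the table. *Slc4a7* had no entry there. The replicate numbers were checked for pairing: deviations of same-numbered rats correlated at −0.159 to 0.156, so they share only a number.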

Additional observations from a re-analysis of the deposited data

Results flagged for a closer look

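Among 27 genes, 53 groups of 5 rats were checked for a rat far from the other 4 of its sex, and 3 were found, where chance flags about 1 in 20 groups. *Slc9a8* was at 9.02 FPKM in female 2, against 10.7 to 10.8 FPKM in the other females. *Car14* was at 20.2 FPKM in male 5, against 41.9 to 49.6 FPKM in the other males. *Slc9a3r2* was at 38.0 FPKM in male 1, against 25.6 to 29.1 FPKM in the other males.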

How the results depend on the processing

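*Slc9a2* was called by limma under all 21 alternatives, with a log2 fold change of 0.86 to 1.32 and an adjusted p of 0.00168 to 0.0292, and it was the 1 of 7 genes called in each. With a replicate block, 2 related genes were called in place of 4, or 1 in place of 3 without *Car5a*, which had no read in males and supports no count, and 119 genes were higher and 112 lower against 223 and 201; *Car3* (adjusted p = 0.0741) and *Chp1* (adjusted p = 0.0662) lost the call in limma. With an exact sign-flip of same-numbered pairs as the replicate block, 0 of the 7 genes passed, and the *Slc9a2* difference of 1.93 FPKM had p = 0.0625, the smallest that design allows. The numbers gave no sign of pairing. With equal reads outside mitochondrial genes, the *Slc9a3* difference was −0.214 FPKM. *Pdzk1* was at −0.059 with quantile normalization, −0.024 with equal reads outside mitochondrial genes and −0.0033 with limma-voom, as log2 fold changes. The causes were not tested.

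Leaving out 1 rat at a time gave 2 (without female 5) to 6 (without female 2) related genes by limma, or 1 to 5 without *Car5a*, and 1 to 2 of the 7 by the exact test, the second being *Slc9a4* without female 5. Log2 fold changes ranged from −0.22 (without male 5) to 0.22 (without female 2) for *Slc9a3*, −0.14 to 0.022 (without female 2) for *Slc4a2*, −0.59 (without male 5) to 0.026 (without female 2) for *Slc4a4*, −0.32 to 0.021 (without female 4) for *Slc4a7*, −0.074 (without male 5) to 0.27 for *Car14*, −0.14 to 0.18 for *Pdzk1* and −0.050 to 0.027 for *Ahcyl1*. Differences in mean FPKM ranged from −2.72 (without female 4) to 2.62 (without female 2) for *Slc9a3*, 0.204 to 1.11 for *Slc9a4*, −2.22 to 0.356 for *Slc4a2* and −0.280 to 0.0529 for *Slc4a7*. *Car5b* lost its limma call without female 5 (adjusted p = 0.0580), and *Car3* without male 3, male 5, female 3 or female 5 (adjusted p up to 0.0733). *Car5a* and *Slc4a8* were below a filter of 1 FPKM.

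Among the 7 genes, *Slc4a7* (54 to 145 reads per library) and *Slc9a2* (62 to 265) had the fewest reads.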
